A study of Mus musculus with 3 samples.

Results

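The homeostatic chemokines and their receptors examined here were 10 genes. They were the ligands *Cxcl12*, *Cxcl13*, *Cxcl14*, *Cxcl16* and *Ccl19*, the signalling receptors *Cxcr4*, *Cxcr6*, *Ccr7* and *Cx3cr1*, and the atypical receptor *Ackr3*. They were taken by name from the 32285 genes of each count table and matched by Ensembl ID, and all 10 were found in all 3 libraries. The samples were skin wounds of adult male C57BL/6J mice, a common inbred laboratory strain, and the labels name no transgene, treatment or sort for any group. Wound tissue was taken at Day 3, Day 7 or Day 14 post injury and dissociated, and its single cells were sequenced after capture in droplets. There was 1 library per day, made from cells pooled over several wounds, and intact skin was not analysed here. A ratio of days therefore compares 2 libraries, has no replicate check and carries no p-value.

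mRNA molecules were counted by their unique molecular identifiers (UMIs), and levels are given as CPM, the usual scaling of a gene's UMIs to the UMI total of the same cells. Ratios are log2 ratios of CPM, the later day over the earlier. All intervals are 95% intervals (exact Poisson for CPM, exact binomial for ratios and shares) and cover counting error only. The libraries held 38133650, 120940799 and 112713257 UMIs, and 4360, 19590 and 13510 cells were kept on Days 3, 7 and 14. These cells fell into 29 clusters, made without the 10 genes, and all but 2 took a class name from marker lists (13 classes). All lists were standard markers except that of the *Bmp4* mesenchymal-like class, which followed the study's own cluster table of these libraries. Fibroblast-like cells (summed CPM of the 8 fibroblast markers 45218 to 99667) and macrophage-like cells (8 macrophage markers, 7750 to 17212) carried their defining markers on every day. Fibroblast-like cells were 11.5%, 31.6% and 52.6% of cells on Days 3, 7 and 14. Macrophage-like cells were 62.3%, 49.0% and 23.8%. Depth moved with the day. The median fibroblast-like cell held 38382 UMIs on Day 3, against 10100.5 on Day 7 and 9901 on Day 14, and the 501 fibroblast-like cells of Day 3 held 55.9% of its UMIs. Between 19 and 111 cell barcodes were shared by a pair of libraries.

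Chemokines are small secreted proteins that guide moving cells through G protein-coupled receptors. The homeostatic members are made in resting tissue and lymphoid organs and set where leukocytes reside, whereas inflammatory members are induced by injury. CXCL12 acts on CXCR4 and is taken up by the atypical receptor ACKR3, which clears it without G protein signalling. CXCL16 is a membrane-bound ligand of CXCR6, CCL19 and CCL21 call CCR7-bearing dendritic cells and T cells into lymphatic vessels and lymph nodes, CX3CR1 binds CX3CL1, and CXCL13 attracts B cells. CXCL14 is abundant in normal skin epithelium.

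Each of the 10 genes had over 50% of its UMIs in 1 cell class on every day. Fibroblast-like cells held 90.1% to 99.3% of *Cxcl12*, 97.7% to 99.7% of *Cxcl13*, 75.7% to 89.1% of *Cxcl14*, 91.2% to 95.3% of *Ccl19* and 94.4% to 96.1% of *Ackr3*. The class held 55.9%, 63.5% and 72.8% of all UMIs on Days 3, 7 and 14. The 75.7% of *Cxcl14*, on Day 14, was therefore near the share of the class in all UMIs. Macrophage-like cells held 34.7%, 27.2% and 12.7% of all UMIs. Macrophage-like cells held 56.3% to 75.6% of *Cxcl16*, 80.5% to 86.7% of *Cxcr4* and 83.8% to 85.4% of *Cx3cr1*. Mature dendritic-like cells, at most 1.51% of cells, held 63.4% to 72.5% of *Ccr7*. T or NK-like cells held 83.0% to 100% of *Cxcr6*, although the 100% of Day 3 rested on 10 UMIs.

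**Figure D1:**
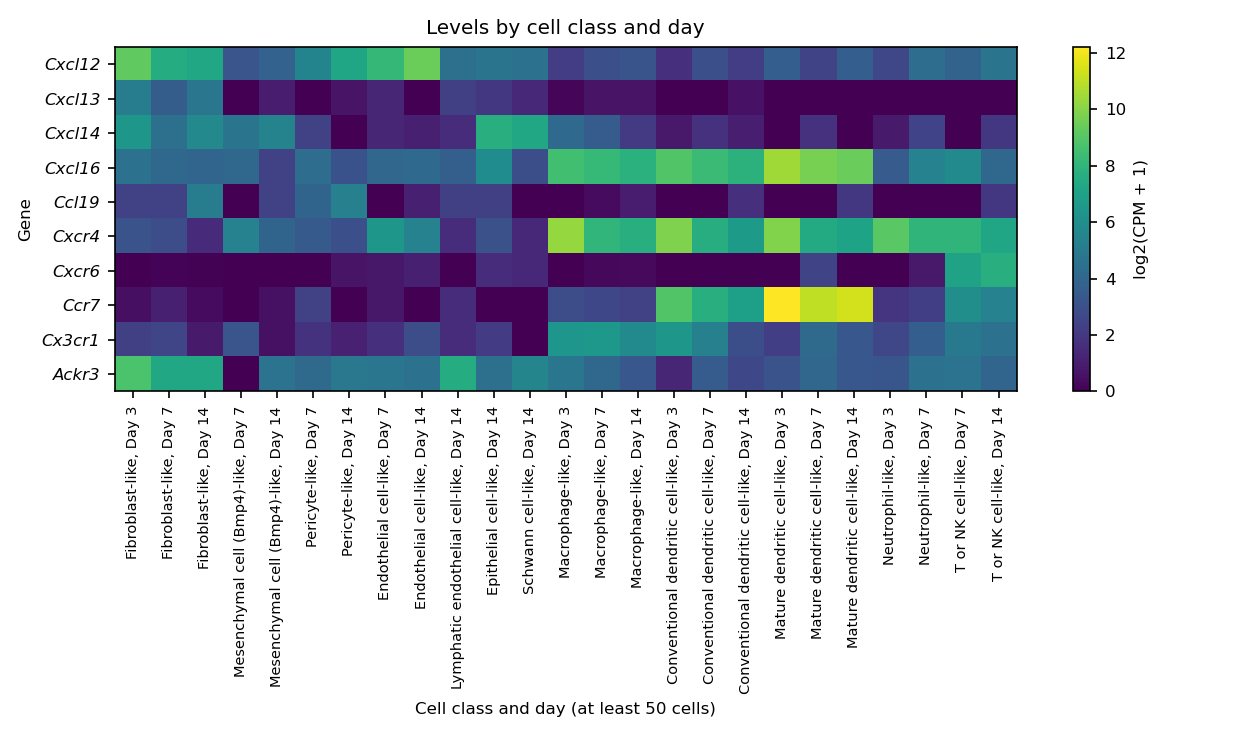
Level of each gene (rows) in each cell class and day with at least 50 cells (columns), as log2(CPM + 1) on the colour scale. The highest column of *Cxcl13* and *Ackr3* is the fibroblast-like one of Day 3 (34.3 and 432 CPM), that of *Cxcl12* the endothelial-like one of Day 14 (711 CPM), that of *Ccl19* the pericyte-like one of Day 14 (39.4 CPM) and that of *Cxcr4* the macrophage-like one of Day 3 (1239 CPM), while *Ccr7* stands out in the mature dendritic-like columns (4741, 2075 and 2676 CPM).

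In the whole libraries, 6 of the 10 genes were at least 2-fold lower on Day 7 than on Day 3, with intervals that left out equal levels. They were *Cxcl12*, *Cxcl13*, *Cxcl14*, *Cxcr4*, *Ccr7* and *Ackr3*, and the background was 8.24% of 15941 genes. Only *Cxcr6* was at least 2-fold higher (background 11.2%). The median log2 ratio was -1.18 for the 10 genes and -0.07 for all genes. When each cell was given equal weight (mean of the CPM of each cell) in place of summed UMIs, 1 of the 10 genes was at least 2-fold lower and 2 were higher. Among cells of 5000 to 20000 UMIs, a range that kept 38 of the 501 fibroblast-like cells of Day 3, 4 of the 10 genes were higher and the library ratios of *Cxcl12*, *Cxcl13*, *Cxcl14* and *Ackr3* changed sign (1.84, 3.00, 0.41 and 1.92). From Day 7 to Day 14, *Cxcl13*, *Cxcl14* and *Ccl19* (3 genes, background 11.3%) were at least 2-fold higher and *Cxcl16*, *Cxcr4* and *Cx3cr1* (3 genes, background 8.50%) at least 2-fold lower. The median log2 ratio was then 0.08, against -0.10 for all 17085 genes. Among cells of 5000 to 20000 UMIs, 1 of the 10 genes was at least 2-fold lower on Day 14 than on Day 7. The counts at equal cell weight and at 5000 to 20000 UMIs have no share over all genes beside them. They only describe the 10 genes.

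**Figure D2:**
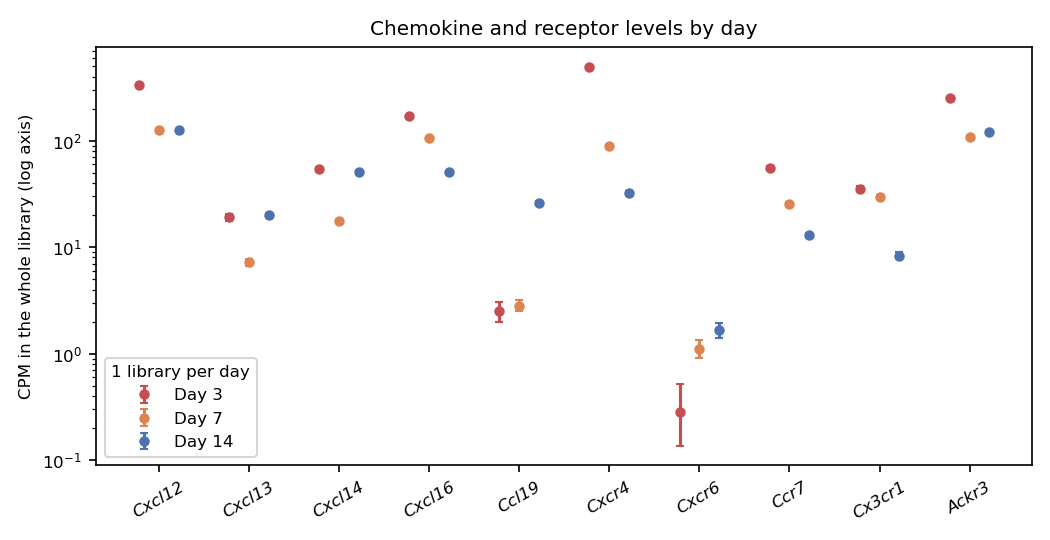
CPM of each gene in the whole library of each day (log axis, 1 point per library, bars are exact Poisson intervals). *Cxcr4* goes from 495 to 32.3 CPM between Days 3 and 14, and *Ccl19* from 2.50 to 26.2.

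Within fibroblast-like cells, 9 of the 10 genes had the 20 UMIs needed to count a ratio, *Cxcr6* being left out. *Cxcl12*, *Cxcl13*, *Cxcl14* and *Ackr3* (4 genes, background 9.93%) were at least 2-fold lower on Day 7 than on Day 3, and *Ccr7* (1 gene, background 10.8%) was higher at a trace level given with that gene. From Day 7 to Day 14, *Cxcl13*, *Cxcl14* and *Ccl19* (3 genes, background 7.49%) were higher and *Cxcr4*, *Ccr7* and *Cx3cr1* (3 genes, background 9.82%), which fibroblast-like cells hold at trace level, were lower. Within macrophage-like cells, 7 genes could be counted between Days 3 and 7. *Cxcr4* alone was at least 2-fold lower (background 4.72%), and 0 genes were higher (background 11.7%). Of 8 genes counted between Days 7 and 14, *Cxcl14* alone was at least 2-fold lower (background 5.76%) and 0 were higher (background 5.35%). The macrophage-like counts rest on 1 gene each.

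*Cxcl12*, the ligand of CXCR4 and ACKR3, lies at chr6:117168535-117181367 on the plus strand of GRCm38. Its library level was 335 CPM on Day 3, 127 CPM on Day 7 and 126 CPM on Day 14. The Day 3 library was the high one, and the later libraries differed by a log2 ratio of -0.01 (-0.04 to 0.03). In fibroblast-like cells the level was 595 CPM (584 to 605), then 188 (185 to 191), then 156 (153 to 159), so the order of days was clear of counting error. The log2 ratio of Day 7 over Day 3 was -1.66 (-1.70 to -1.62) in these cells and -1.40 (-1.44 to -1.37) in the whole libraries. Of 8 genes known to respond to dissociation and stress (*Fos*, *Jun*, *Junb*, *Egr1*, *Atf3*, *Hspa1a*, *Hspa1b* and *Dusp1*, none at 0), 5 were higher and 3 lower on Day 7 in fibroblast-like cells, and *Jun* (1.16), *Atf3* (1.86) and *Hspa1a* (1.06) were past 2-fold. Their summed level was 8154, 7756 and 9010 CPM on Days 3, 7 and 14, and their part in the fibroblast-like ratios was not tested. The *Cxcl12* ratio was -1.79 in fibroblast-like cells when each cell had equal weight, but only -0.21 in the whole libraries, where the few, deep fibroblast-like cells of Day 3 then counted as 11.5% of cells and not as 55.9% of UMIs. After every cell was thinned to 500 UMIs, a *Cxcl12* UMI was found in 22.4%, 8.69% and 7.23% of fibroblast-like cells on Days 3, 7 and 14. The share was 0.258% to 0.417% in macrophage-like cells, whose median depth was 2553 to 4058 UMIs and whose 3.69 to 8.07 CPM lay near the level that carried-over fibroblast RNA would give (4.02 to 6.22 CPM).

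The promoters of *Cxcl12*, *Ackr3* and *Cxcr4* are shown because these 3 genes form 1 ligand and receptor group and were each over 2-fold lower on Day 7 than on Day 3 in the class that held most of their UMIs. The sequences are the 250 bases before the RefSeq transcript start (GRCm38.p6), 5′ to 3′ on the strand of the gene, at chr6:117168285-117168534 (plus), chr1:90203730-90203979 (plus) and chr1:128592300-128592549 (minus).
Cxcl12: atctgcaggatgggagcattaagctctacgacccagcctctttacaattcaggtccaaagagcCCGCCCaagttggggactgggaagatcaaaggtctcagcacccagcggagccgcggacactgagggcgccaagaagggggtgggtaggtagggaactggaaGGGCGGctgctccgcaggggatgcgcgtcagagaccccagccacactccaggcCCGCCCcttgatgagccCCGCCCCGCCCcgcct
Ackr3: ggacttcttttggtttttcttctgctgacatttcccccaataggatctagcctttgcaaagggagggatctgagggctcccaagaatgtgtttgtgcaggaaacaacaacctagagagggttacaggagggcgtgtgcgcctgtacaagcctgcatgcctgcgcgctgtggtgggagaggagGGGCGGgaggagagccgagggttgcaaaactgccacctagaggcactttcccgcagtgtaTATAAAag
Cxcr4: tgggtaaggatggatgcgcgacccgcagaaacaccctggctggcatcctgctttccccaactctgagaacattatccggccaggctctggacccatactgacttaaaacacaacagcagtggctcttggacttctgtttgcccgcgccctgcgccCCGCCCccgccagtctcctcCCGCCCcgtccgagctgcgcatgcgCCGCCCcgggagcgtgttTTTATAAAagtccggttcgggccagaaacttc
Capitals mark GGGCGG, the GC box bound by Sp-family factors, and TATAAA, the core box at which the basal transcription machinery can assemble, on either strand. *Cxcl12* held GGGCGG 5 times, the matches nearest the start overlapping each other, and no TATAAA. *Ackr3* held each of them once, with TATAAA beginning 8 bases before the start. *Cxcr4* held GGGCGG 3 times and TATAAA on both strands in 1 overlapping stretch about 30 bases before the start. GC content was 64.4%, 54.0% and 61.2%, against a median of 52.4% over all promoters. Over 32851 promoter windows of the same length, GGGCGG occurred in 32.7% and TATAAA in 12.4%. The other motifs searched, on both strands, were the hypoxia response core ACGTG (16.6% of all windows) and the AP-1 site TGACTCA (4.46%), and they were found in none of the 8 of 10 genes with a promoter in the table. A match here describes letters and not a bound site.

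The clusters behind the fibroblast-like class differed by day. The libraries were clustered together without batch alignment, and with 1 library per day, day and library cannot be told apart in them. On Day 3, 73.9% of them fell in cluster 13, led by *Saa3* and *Cxcl5*. On Day 7, 36.1% fell in cluster 6, led by *Tnc* and *Postn*, and 27.5% in cluster 4, led by *Sfrp2*, *Ptx3* and *Pi16*. On Day 14, 32.9% fell in cluster 3 (*Mgp*, *Eln*), 25.8% in cluster 2 (*Mgp*, *Mmp3*) and 20.4% in cluster 10 (*Mfap4*, *Ctsk*). The lower *Cxcl12* of the later libraries was also seen inside clusters. In cluster 13 it was 576 CPM on Day 3 and 185 on Day 7, a log2 ratio of -1.64 (-1.72 to -1.56), and in the shallow cluster 14 (*Col1a1*, *Col1a2*) 619 and 173 CPM, -1.84 (-2.28 to -1.40). From Day 7 to Day 14 it was lower in each of clusters 2, 3, 4 and 6, by -1.05, -1.02, -0.76 and -1.24, and cluster 14 stood at -0.20 (-0.60 to 0.21), although the class as a whole differed by only -0.27 (-0.31 to -0.23). Cluster 10, nearly all from Day 14 (1451 of 1478 cells), held *Cxcl12* at 215 CPM, above the other Day 14 fibroblast-like clusters.

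Blood vessel cells held *Cxcl12* too, and there the direction was the opposite. Endothelial-like cells had 282 CPM (255 to 311) on Day 7 and 711 (658 to 767) on Day 14, a log2 ratio of 1.33 (1.15 to 1.52). On both days the level was above that of fibroblast-like cells in the same library (188 and 156 CPM). Pericyte-like cells had 44.7 CPM on Day 7 and 145 on Day 14, a ratio of 1.70 (1.27 to 2.15). Carried-over fibroblast RNA would give 10.3 to 12 CPM in endothelial-like cells and 14.6 to 31.9 in pericyte-like cells. The 184 to 189 endothelial-like cells gave 3.06% and 5.37% of all *Cxcl12* UMIs on Days 7 and 14, and the 186 to 432 pericyte-like cells 0.424% and 2.07%. On Day 3 there were 10 cells of each, too few for a value. The summed level of the 8 stress genes also differed, from 5411 on Day 7 to 6864 CPM on Day 14 in endothelial-like and from 7105 to 9696 CPM in pericyte-like cells. Their part in the *Cxcl12* result was not tested.

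**Figure D3:**
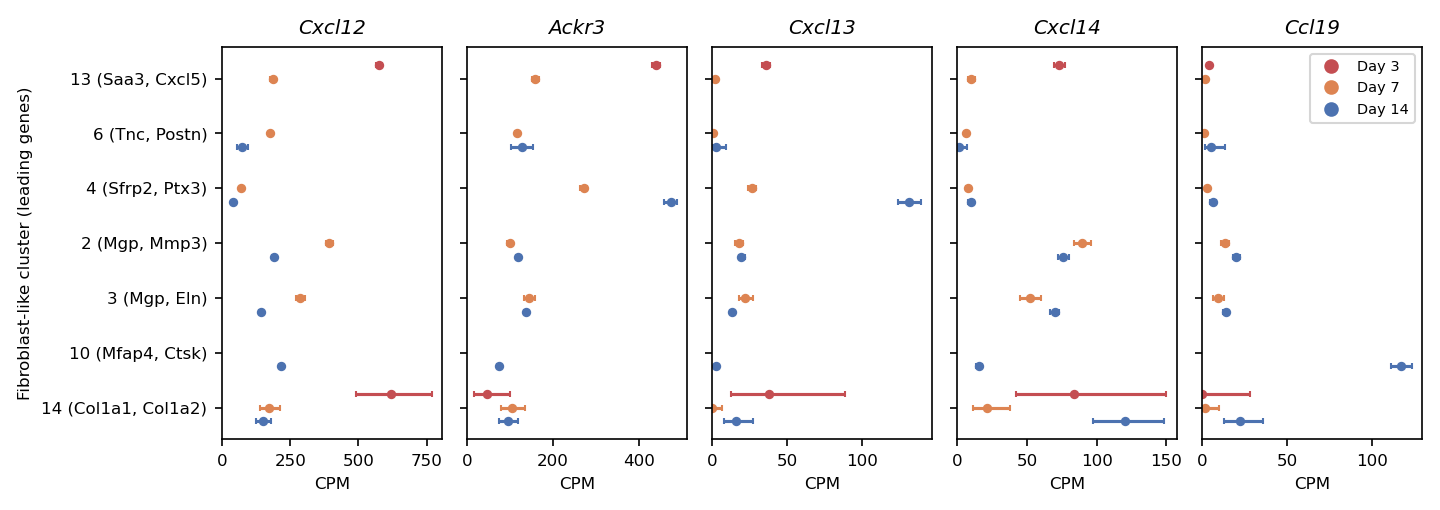
CPM of *Cxcl12*, *Ackr3*, *Cxcl13*, *Cxcl14* and *Ccl19* in the fibroblast-like clusters (rows, with their leading genes), by day, where a cluster had at least 50 cells in that library (bars are exact Poisson intervals). *Ackr3* and *Cxcl13* are highest in cluster 4 on Day 14 (474 and 132 CPM), where *Cxcl12* is lowest (41.9 CPM), and *Ccl19* is highest in cluster 10 (117 CPM).

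*Ackr3*, the scavenging receptor of CXCL12 (chr1:90203980-90216751, plus strand), had 251 CPM in the Day 3 library, 108 on Day 7 and 121 on Day 14. As for *Cxcl12*, the Day 3 library stood above the later ones. Fibroblast-like cells held 432 CPM (423 to 441) on Day 3, against 160 CPM (157 to 164) at Day 7 and 159 CPM (156 to 162) at Day 14, and the last pair did not differ beyond counting error. The Day 7 over Day 3 ratio was -1.43 (-1.47 to -1.39) in fibroblast-like cells and -1.17 with cells weighted equally. In the whole libraries it was -1.22 from summed UMIs and -0.05 with cells weighted equally. Thinned to 500 UMIs, 15.6%, 7.48% and 6.86% of fibroblast-like cells had a UMI.

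In the later libraries, fibroblast-like clusters 2 and 4 were opposite in which of *Ackr3* and *Cxcl12* had the higher level. Other clusters held many UMIs of both genes. Cluster 6 held 4553 of *Cxcl12* and 3010 of *Ackr3* on Day 7, and cluster 3 held 3884 and 3764 on Day 14. On Day 7, cluster 4 had 271 CPM (263 to 279) of *Ackr3* and 71.0 CPM of *Cxcl12*, while cluster 2 had 98.8 and 393 CPM. On Day 14, cluster 4 had 474 CPM (459 to 488) of *Ackr3* and 41.9 CPM of *Cxcl12*, while cluster 2 had 118 and 190 CPM. Thus *Ackr3* in cluster 4 was higher on Day 14 by a log2 ratio of 0.81 (0.74 to 0.87) while the class as a whole stood at -0.02. On Day 3, 91.2% of *Ackr3* and 89.6% of *Cxcl12* UMIs came from cluster 13, at 440 and 576 CPM. These shares were near the size of that cluster, which held 93.2% of all fibroblast-like UMIs of Day 3. Inside that cluster *Ackr3* was lower on Day 7 by -1.47 (-1.55 to -1.38). In cluster 14 the Day 3 value rested on 6 UMIs and its ratio was 1.19 (-0.02 to 2.69).

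Outside fibroblast-like cells, *Ackr3* reached 190 CPM (154 to 232) in the 50 lymphatic endothelial-like cells of Day 14, where carried-over fibroblast RNA would give 14.5 CPM. A UMI was found in 42.0% of these cells, but in 0% (0 to 7.11%) after thinning to 500 UMIs. ACKR3 is known on lymphatic endothelium. Macrophage-like cells had 26.6, 16.0 and 8.80 CPM of *Ackr3* on Days 3, 7 and 14, against carried-over levels of 2.92, 5.16 and 6.33 CPM. It was highest in cluster 1 (*Arg1*, *Spp1*, *Ccl9*), at 30.9 CPM on Day 3 and 36.2 on Day 7, and on Day 14 the macrophage-like level was near the carried-over one.

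*Cxcl13*, the B cell attractant (chr5:95956951-95961068, plus strand), was a rare transcript carried by few cells. Its library level was 19.2 CPM on Day 3, 7.24 CPM on Day 7 and 19.9 CPM on Day 14, so the Day 7 library was the low one. On Day 3, 10 cells held 61.2% of its 677 UMIs, on Day 14 21.8% of 1934. In fibroblast-like cells the levels were 34.3, 11.1 and 26.9 CPM, with log2 ratios of -1.62 (-1.78 to -1.47) and then 1.27 (1.15 to 1.40). The cluster with most of its UMIs differed between days, but so did the clusters present. On Day 3, cluster 13 held 97.0% of the *Cxcl13* UMIs and 93.2% of all fibroblast-like UMIs. Cluster 4 had 9 cells on Day 3, too few for a value. In cluster 13, Day 7 cells had 1.72 CPM against 35.8 on Day 3, a ratio of -4.38 (-5.29 to -3.59). On Days 7 and 14, 60.3% and 57.5% of the *Cxcl13* UMIs were in cluster 4 (*Sfrp2*, *Ptx3*, *Pi16*). There the level was 26.5 CPM (24.0 to 29.1) on Day 7 and 132 (124 to 140) on Day 14, a ratio of 2.31 (2.15 to 2.48), while in cluster 3 it was -0.75 (-1.09 to -0.39) and in cluster 2 it was 0.15 (-0.12 to 0.43). All other classes were at 3.92 CPM or less.

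*Cxcl14*, the skin epithelial chemokine (chr13:56288643-56296551, minus strand), had 54.1 CPM in the Day 3 library, 17.7 on Day 7 and 51.2 on Day 14. The Day 7 library was again the low one, and 10 cells held 64.4% of the 1904 UMIs of Day 3. Fibroblast-like cells had 86.2, 22.1 and 53.3 CPM, with log2 ratios of -1.96 (-2.07 to -1.86) and 1.27 (1.18 to 1.36). Inside the larger clusters present on both later days the Day 14 over Day 7 ratio was smaller, -0.24 (-0.36 to -0.11), 0.42 (0.21 to 0.64) and 0.41 (-0.01 to 0.81) in clusters 2, 3 and 4. The exception was the shallow cluster 14, with 12 and 92 UMIs and a ratio of 2.48 (1.61 to 3.48). Clusters 2 and 3 held it at 75.9 and 69.9 CPM on Day 14, clusters 4 and 10 at 10.1 and 15.3 CPM, and clusters 2 and 3 went from 15.6% and 6.29% of fibroblast-like cells on Day 7 to 25.8% and 32.9% on Day 14. In cluster 13 it was 73.0 CPM on Day 3 and 10.1 on Day 7, a ratio of -2.86 (-3.21 to -2.52).

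Of all classes, epithelial-like cells had the highest *Cxcl14* on Day 14, 205 CPM (193 to 219), followed by Schwann-like cells with 155 (126 to 190), both far over the carried-over levels of 2.34 and 9.23 CPM. The Schwann-like class held 3233 summed CPM of the 5 melanocyte markers beside 4957 of the 8 Schwann markers, and which of its cells carried *Cxcl14* was not tested. The *Bmp4* mesenchymal-like cells had 43.0 CPM (34.7 to 52.7), just under the 53.3 CPM (51.6 to 55.0) of fibroblast-like cells. The 717 epithelial-like cells of Day 14 held 19.6% of the gene's UMIs in that library, and there were 1 and 49 such cells on Days 3 and 7. Moving only the class UMI shares from Day 7 to Day 14 gave a library ratio of 0.44, of 1.53 observed. Macrophage-like cells had 16.8, 10.7 and 3.15 CPM on Days 3, 7 and 14, against carried-over levels of 0.583, 0.712 and 2.13 CPM. On Days 3 and 7 most of these UMIs were in clusters 0 and 1, both led by *Spp1* and *Arg1* (14.0 to 27.8 CPM), whereas on Day 14 cluster 8 held 15 UMIs and cluster 0 only 4. The Day 14 over Day 7 ratio in macrophage-like cells was -1.77 (-2.29 to -1.28) while in fibroblast-like cells it was 1.27. Inside cluster 0 it was -1.27 (-3.16 to 0.11), which did not leave out equal levels. With each library clustered alone the macrophage-like ratio was -0.95.

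*Ccl19*, a CCR7 ligand of lymphoid stroma (chr4:42754525-42756577, minus strand), was near absent until Day 14. Its library level was 2.50 CPM on Day 3, 2.83 CPM on Day 7 and 26.2 CPM on Day 14, and the first pair did not differ beyond counting error (0.18, -0.17 to 0.54). In fibroblast-like cells it was 4.21, 4.07 and 34.4 CPM, a log2 ratio of 3.08 (2.89 to 3.27) for Day 14 over Day 7. Cluster 10 (*Mfap4*, *Ctsk*) held 62.3% of the Day 14 UMIs at 117 CPM (111 to 123). That cluster had 27 cells on Day 7 and none on Day 3. In clusters 2, 3 and 4 the ratio was smaller, 0.58 (0.29 to 0.89), 0.56 (0.06 to 1.09) and 1.24 (0.64 to 1.84) in that order. In cluster 6, with 25 UMIs on Day 7 and 4 on Day 14, it was 2.43 (0.45 to 3.97), an interval that includes the class ratio. Pericyte-like cells had 14.1 CPM on Day 7 and 39.4 (30.7 to 49.9) on Day 14. *Ccl19* overlaps *4930578G10Rik* on the opposite strand and has near-identical copies nearby, so its counts are uncertain to that extent.

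*Cxcl16* (chr11:70453983-70459984, minus strand), which encodes both a membrane-bound scavenger of oxidised lipid and the ligand of CXCR6, had 169 CPM in the Day 3 library, 107 on Day 7 and 50.8 on Day 14. Each library was below the one before it. Mature dendritic-like cells had the highest level on every day, 1404 (1265 to 1555), 848 (787 to 912) and 681 (596 to 774) CPM. Conventional dendritic-like cells followed with 471 (435 to 510), 321 (299 to 344) and 230 (209 to 253) CPM, and macrophage-like cells with 368 (357 to 379), 291 (284 to 297) and 225 (217 to 233) CPM. On Day 14 these last classes did not differ beyond counting error. In macrophage-like cells the log2 ratios were -0.34 (-0.39 to -0.29) and -0.37 (-0.43 to -0.31). Inside clusters the Day 14 over Day 7 ratio ran from -1.76 (-2.25 to -1.30) in cluster 9 to 0.18 (0.02 to 0.34) in cluster 7, and in clusters 0 and 15 it did not leave out equal levels (-0.15 and -0.10). When the class levels of Day 7 were kept and only the UMI shares of the classes were moved to those of Day 14, the library ratio was -0.73 of the -1.07 observed, with -0.34 left within classes. Between Days 3 and 7 the same split gave -0.28 from class shares and -0.38 within classes, of -0.66 observed. Fibroblast-like cells had 22.4, 16.7 and 15 CPM, above the 3.41, 4.68 and 1.14 CPM that carried-over macrophage RNA would give, and their Day 7 over Day 3 ratio of -0.43 turned to 0.37 with doublets kept. The gene overlaps *Zmynd15* on the opposite strand.

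*Cxcr6*, the receptor of CXCL16 on tissue-resident T cells (chr9:123806475-123811760, plus strand, within *Fyco1* on the opposite strand), was the rarest transcript. The libraries held 10, 112 and 161 UMIs, or 0.284, 1.11 and 1.65 CPM. In T or NK-like cells the level was 130 CPM (105 to 159) on Day 7 and 208 (175 to 245) on Day 14, a log2 ratio of 0.68 (0.29 to 1.07). Thinned to 500 UMIs, 5.53% and 8.81% of these cells had a UMI. The class also changed in makeup, its summed T cell markers going from 1617 to 5168 CPM and its NK cell markers from 713 to 571 CPM, and cluster 26 from 1.05% to 22.3% of its cells. Inside cluster 18, the larger of its clusters, the *Cxcr6* ratio was 0.74 (0.33 to 1.16). There were 11 T or NK-like cells on Day 3, 380 on Day 7 and 318 on Day 14, that is 0.252%, 1.94% and 2.35% of cells. With the Day 3 class levels kept, the change of class shares alone gave a library ratio of 3.34 for Day 7 over Day 3, against 1.97 observed, but the Day 3 level rested on those 11 cells. *Cxcl16* was in macrophage-like and dendritic-like cells and *Cxcr6* in T or NK-like cells on both later days.

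*Cxcr4* (chr1:128588199-128592293, minus strand), the CXCL12 receptor that holds and recruits leukocytes, gave the largest drop among the 10 genes between Days 3 and 7. The library level was 495 CPM on Day 3, 89.8 CPM on Day 7 and 32.3 CPM on Day 14, each below the one before. Macrophage-like cells had 1239 CPM (1219 to 1259) on Day 3, then 265 CPM (259 to 272) at Day 7 and finally 205 CPM (197 to 213) at Day 14. The log2 ratios in these cells were -2.22 (-2.26 to -2.18) and -0.37 (-0.44 to -0.31). The drop from Day 3 did not depend on how cells were weighted. It was -2.46 in the whole libraries from summed UMIs and -2.39 with cells weighted equally. Thinned to 500 UMIs, 41.5% of macrophage-like cells had a *Cxcr4* UMI on Day 3, 12.1% on Day 7 and 9.24% on Day 14, against 0.0985% to 0.468% of fibroblast-like cells.

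The lower *Cxcr4* of Day 7 was found in each leukocyte class with at least 50 cells on both days. Conventional dendritic-like cells had 931 CPM (879 to 984) on Day 3 and 196 (179 to 214) on Day 7, a ratio of -2.25 (-2.40 to -2.10). Mature dendritic-like cells had 944 CPM (830 to 1069) and 174 (148 to 205), -2.44 (-2.74 to -2.14). Neutrophil-like cells had 539 CPM (498 to 583) and 253 (226 to 281), -1.09 (-1.29 to -0.90). The summed level of the 8 stress genes, none at 0, was also lower on Day 7 in these classes. It went from 10515 to 8262 CPM in macrophage-like, 7932 to 5844 in conventional dendritic-like, 5681 to 4312 in mature dendritic-like and 18563 to 11054 in neutrophil-like cells. The 8 genes did not move as 1, 5 being lower and 3 higher in macrophage-like cells, with *Junb* at -1.01 and *Jun* at 0.93. Their part in the *Cxcr4* result was not tested. In the order of levels on Day 3, macrophage-like cells came first, the dendritic-like classes did not differ from each other beyond counting error, and neutrophil-like cells came last. On Day 14 the levels were 205 CPM in macrophage-like, 149 (122 to 181) in T or NK-like, 135 (98.8 to 180) in mature dendritic-like and 101 (87.6 to 117) in conventional dendritic-like cells, and the intervals of neighbours among the last 3 overlapped. Endothelial-like cells had 86.0 CPM on Day 7 and 41.0 on Day 14, -1.07 (-1.64 to -0.53), where their *Cxcl12* was higher on Day 14. Fibroblast-like cells had 7.62, 6.37 and 1.85 CPM, near the carried-over 11.5, 4.27 and 1.04 CPM.

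Macrophage-like clusters changed too. On Day 3, 79.2% of these cells were in cluster 1 (*Arg1*, *Spp1*, *Ccl9*), on Day 7 41.6% in cluster 0 (*Spp1*, *Arg1*, *Mmp12*) and on Day 14 43.0% in cluster 8 (*Mrc1*, *C1qb*). Within clusters the Day 7 over Day 3 ratio of *Cxcr4* was -1.87 in cluster 0, -2.01 in cluster 1, -2.09 in cluster 7 (*F13a1*, *Mrc1*) and -1.91 in cluster 9 (*Ccr2*, *Ly6c2*). In the shallow cluster 12, with 26 UMIs on Day 3, it was -0.70 (-1.31 to -0.04). From Day 7 to Day 14 the clusters went both ways, 0.45 (0.30 to 0.61) in cluster 7 and 0.39 (0.13 to 0.64) in cluster 15 (*Retnla*, *Lyz1*) against -0.41 in cluster 8, -0.54 in cluster 0, -0.76 in cluster 9 and -1.94 in cluster 12, the latter with 11 UMIs on Day 14. The intervals of these 4 lay below 0, while that of cluster 22 did not leave out 0 (-0.28, -0.68 to 0.12). With class levels held, class shares gave -0.34 of the -2.46 between Days 3 and 7, and -0.91 of the -1.47 between Days 7 and 14.

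**Figure D4:**
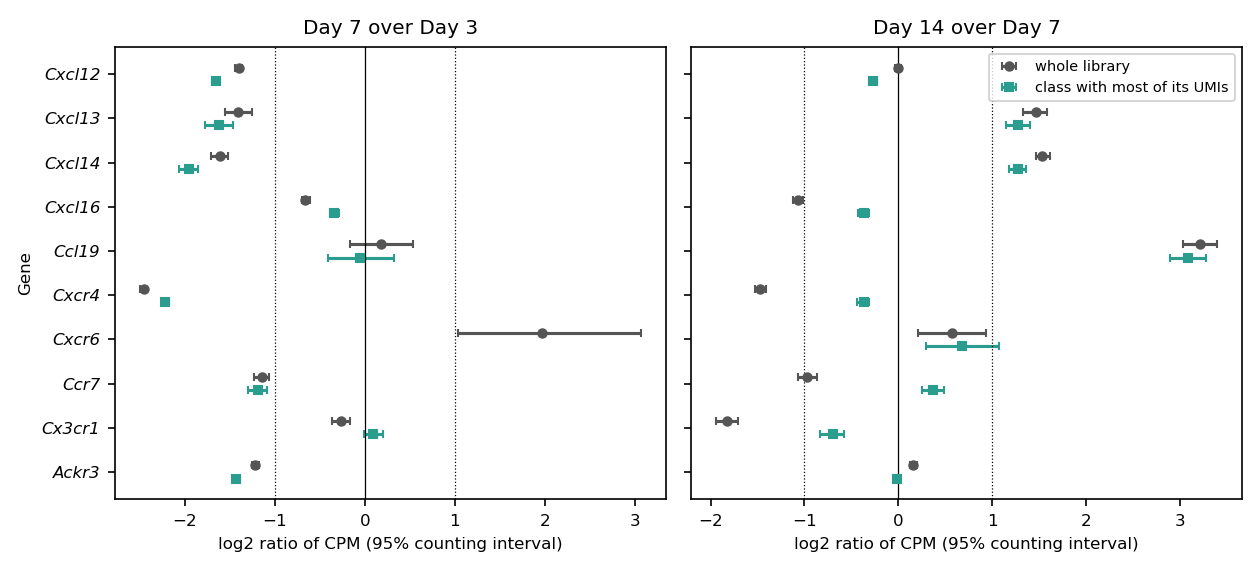
Log2 ratio of CPM of each gene for Day 7 over Day 3 (left) and Day 14 over Day 7 (right), in the whole library (circles) and in the class that held most of its UMIs (squares), with 95% counting intervals. Dotted lines mark 2-fold. *Cxcr4* lies below -2 on the left on both scales (-2.46 and -2.22), and *Ccl19* above 3 on the right (3.21 and 3.08).

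*Cx3cr1*, the receptor of patrolling monocytes and resident macrophages (chr9:119901616-120069879, minus strand), had 35.4 CPM in the Day 3 library, 29.5 on Day 7 and 8.35 on Day 14. In macrophage-like cells the level was 85.6 CPM (80.4 to 90.9) on Day 3, close to the 91.3 CPM (87.7 to 94.9) of Day 7, and 56.0 CPM (51.9 to 60.3) on Day 14. Days 3 and 7 did not differ beyond counting error (0.09, -0.01 to 0.20), and Day 14 was lower by -0.70 (-0.83 to -0.58). Inside clusters the Day 7 over Day 3 ratio went both ways, 1.30 (0.82 to 1.82) in cluster 0, with 36 UMIs on Day 3 and 1262 on Day 7, against -0.40 (-0.67 to -0.13) in cluster 1 and -1.58 (-1.94 to -1.21) in cluster 7. Cluster 9 (*Ccr2*, *Ly6c2*), which is led by monocyte genes, had the highest value on Days 3 and 7, 193 CPM (152 to 242) and 167 (153 to 182). Cluster 7 (*F13a1*, *Mrc1*) had 125 CPM on Day 3, 41.8 CPM on Day 7 and 114 CPM on Day 14, so it was among the low clusters on Day 7 and had the highest value on Day 14. Cluster 15 (*Retnla*, *Lyz1*) had 47.1 CPM on Day 7 and 7.76 on Day 14, a ratio of -2.60 (-3.36 to -1.89). Conventional dendritic-like cells had 88.2, 39.5 and 6.75 CPM, with ratios of -1.16 (-1.56 to -0.76) and -2.55 (-3.51 to -1.71). Carried-over macrophage RNA would give 16.1, 11.9 and 9.87 CPM there, so the Day 14 value, from 13 UMIs, lay below that level. The macrophage markers stood at 13% to 18.8% of their macrophage-like level in these cells. How much of that was the cells' own expression was not tested, so the carried-over level may be too high. The annotated span of *Cx3cr1* overlaps *Csrnp1*, *Gorasp1* and *Xirp1* on its own strand and others on the opposite one, and its counts are uncertain there. Fibroblast-like cells had 4.01, 4.82 and 0.846 CPM of *Cx3cr1*, against 0.793, 1.47 and 0.283 CPM that carried-over macrophage RNA would give.

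*Ccr7* (chr11:99144196-99155077, minus strand), which takes mature dendritic cells into lymphatics, was not among the markers that named the mature dendritic-like class. Its library level was 55.8 CPM on Day 3, 25.3 CPM on Day 7 and 12.9 CPM on Day 14, each below the one before. In mature dendritic-like cells it was 4741 CPM (4482 to 5012), 2075 (1980 to 2174) and 2676 (2505 to 2855), so Day 14 stood above Day 7 by 0.37 (0.25 to 0.48). Thinned to 500 UMIs, 64.9%, 53.4% and 64.8% of the 57, 296 and 88 cells had a UMI. Conventional dendritic-like cells had 475, 198 and 119 CPM. The summed 8 mature dendritic markers in these cells were at 2006, 999 and 904 CPM, beside 1784, 1594 and 2635 CPM of their own 8 markers, and their part in the *Ccr7* values was not tested. T or NK-like cells had 64.3 and 41.0 CPM on Days 7 and 14. Between Days 7 and 14 the library ratio of -0.97 was almost all in class shares (-0.92), mature dendritic-like cells being 1.51% and 0.651% of cells, and -0.05 was left within classes. That library ratio was 0.26 among cells of 5000 to 20000 UMIs. Fibroblast-like cells held 8, 70 and 20 UMIs (0.406, 1.10 and 0.282 CPM), below the 4.12 to 6.39 CPM of macrophage-like cells.

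The other genes of the system were a list of 25 ligands, receptors, scavengers and proteases. From Day 3 to Day 7, 19 had 20 UMIs in the whole libraries, and 7 were at least 2-fold higher (background 11.2%) and 1 (*Ccl20*) lower (background 8.24%). From Day 7 to Day 14, 23 could be counted, 7 higher (background 11.3%) and 6 lower (background 8.50%). Their median log2 ratios were 0.48 and 0.05, against -0.07 and -0.10 over all genes. *Ccl21a*, the lymphatic CCR7 ligand, had 0 UMIs on Day 3 (upper limit 0.105 CPM), 7.87 CPM on Day 7 and 53.4 on Day 14. Of its Day 14 UMIs, 96.8% came from the 50 lymphatic endothelial-like cells, at 9876 CPM. The Day 3 and Day 7 libraries held 2 and 49 such cells, so the 0 of Day 3 rests on almost none of them. *Ccl21b*, near-identical to *Ccl21a*, had 0 UMIs in all 3 libraries, as had *Cxcl17*. Whether reads of the *Ccl21* copies were split or dropped was not tested. *Ccl22*, a CCR4 ligand, was in mature dendritic-like cells, at 2454, 2242 and 1317 CPM. *Ccl17*, the other CCR4 ligand, was at 472, 405 and 208 CPM in mature and at 34.2, 97.0 and 107 CPM in conventional dendritic-like cells, and the latter held 67.1% of its Day 14 UMIs. *Ccl27a*, the keratinocyte ligand of CCR10, was at 529 CPM (508 to 550) in epithelial-like cells of Day 14. *Cx3cl1*, the CX3CR1 ligand, had 0.710, 1.77 and 2.74 CPM in the libraries, with 53.6% of Day 14 UMIs in the many fibroblast-like cells at 2.02 CPM. Its level was higher in mature dendritic-like cells (26.6, 44.5 and 20.5 CPM) and in endothelial-like cells (16.6 and 21.6 CPM on Days 7 and 14). The whole libraries held only 25, 178 and 267 *Cx3cl1* UMIs, so these class levels rest on few UMIs.

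Among the scavengers, *Ackr1*, known on venules, was at 218 CPM (194 to 244) in endothelial-like cells on Day 7 and 731 (677 to 789) on Day 14. Fibroblast-like cells held it at 6.04, 20 and 34 CPM. The gene overlaps *Cadm3* on its own strand, and its counts are uncertain there. *Ackr4*, which clears CCL19 and CCL21, was at 57.0 CPM (47.4 to 68.1) in *Bmp4* mesenchymal-like cells of Day 14. *Ackr2* was in fibroblast-like cells at 4.12 and 3.02 CPM on Days 7 and 14, with 9 UMIs in the whole Day 3 library. *Ccrl2* was at 1898 and 1270 CPM in neutrophil-like cells on Days 3 and 7 and at 335, 279 and 245 CPM in macrophage-like cells. *Ccr9* had 82.2% of its Day 7 UMIs in 99 cells of unnamed clusters, 98 of them in the *Siglech*-led one. The proteases that shed CXCL16 and CX3CL1, *Adam10* and *Adam17*, were at 218, 166 and 91.3 and at 211, 142 and 110 CPM in macrophage-like cells. *Dpp4*, whose product cleaves CXCL12, was at 66.4, 123 and 111 CPM in fibroblast-like cells.

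The genes whose pattern was most like each member were ranked by Pearson correlation of log2(CPM + 10) over 25 class and day points, among 13392 genes. The points share 3 libraries and differ in depth, so the values only describe. *Pdgfd* (0.94), *Ly6c1* (0.93) and *Mapk12* (0.90) were nearest to *Cxcl12*, and *Prelp* (0.93), *Flnc* (0.90) and *Ptx3* (0.89) to *Ackr3*. *Aldh1a1* and *Creb3l3* (0.95 each) were nearest to *Cxcl13*, *Cpxm2* (0.91) to *Ccl19* and *Arhgef19* (0.89) to *Cxcl14*. *Fam49b* (0.95), *Il10ra* and *Grk2* (0.94 each) were nearest to *Cxcr4*, *Cd86* and *Ifi30* (0.94 each) to *Cxcl16*, and *Ms4a6b* (0.95) to *Cx3cr1*. *Il4i1* and *Flt3* (0.96 each) were nearest to *Ccr7*, both of them genes of the dendritic marker lists, and *Skap1* (0.99) was among those nearest to *Cxcr6*.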

How the data were processed

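Single cells of 3 wound libraries were captured with the Chromium 3' v3.1 chemistry and sequenced on a DNBSEQ instrument. The deposited values are raw counts of UMIs for every gene in every cell barcode, which the authors obtained with Cell Ranger 6.0.0 on mm10 (submitters' processing notes) and did not normalise. The annotation is not given in the sources used here, and 32158 of 32285 Ensembl IDs had a symbol. Coordinates are from GENCODE and RefSeq tables of GRCm38. Whether counting used strand is not given.

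Cells were kept with at least 200 genes, 500 UMIs and at most 10% mitochondrial UMIs. Doublets were scored against simulated doublets in each library, and the highest scores were removed, up to 0.5 of the rate expected at 0.8% per 1000 barcodes. This removed 2.07%, 9.17% and 6.65% of cells and left 37460. Counts scaled to 10000 per cell were logged, and 2000 variable genes, 30 components and 15 neighbours gave 29 Leiden clusters at resolution 1 (Python 3.11.15, NumPy 2.4.6, SciPy 1.17.1, scikit-learn 1.9.0, leidenalg 0.10.2, igraph 0.11.9). The libraries were clustered together with no batch alignment, whereas the paper applied the Seurat alignment. The 35 genes of the system and mitochondrial and ribosomal protein genes were left out of clustering. A class needed 3 markers found in 10% of cells and 1 log2 unit over the 25% quantile of clusters, and a mean score of 3, a limit set after the clusters were seen, as was the joint T or NK class. Clusters 1, 6, 13 and 22 had none of their class markers among their top 10 genes by fold, and *Dct* was among those of the Schwann-like cluster.

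Levels are CPM of the UMIs summed over the cells of a class in a library, for classes of at least 50 cells there. Ratios had at least 20 UMIs over both libraries where they were counted, and a gene was called past 2-fold when its 95% interval also left out 1. Carried-over levels are the CPM of the leading class times the ratio of summed marker CPM. For *Ccr7* they were not used, because other classes share the mature dendritic markers. The interval code was tested on simulated data. As alternatives, results were recomputed with equal weight per cell, without the 50 most abundant genes in the scaling, with limits of 5% and 20% mitochondrial UMIs, with doublets kept, at resolution 0.5, with each library clustered alone, with a class per cell from its own markers, with no filter on low counts, thinned to 1000 UMIs and, chosen after seeing the data, on cells with 5000 to 20000 UMIs. The rule for named genes was all 10 members, the list of 25 with values for genes of at least 50 UMIs, and the 3 genes most like each member, of which the text names 1 to 3. A withheld gene is not reported here. The members and lists were chosen with earlier results of these data known.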

Additional observations from a re-analysis of the deposited data

Results flagged for a closer look

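In 5 comparisons a gene was at least 2-fold higher in 1 class and at least 2-fold lower in another, with both intervals leaving out 0 and over 3 UMIs in each library. Pairs with opposite signs in which a ratio was under 2-fold, such as *Cxcl12* for Day 14 over Day 7 in endothelial-like (1.33) and fibroblast-like cells (-0.27), are not listed. With 1 library per day none of these differences was tested. For *Cxcl12*, Day 7 over Day 3, neutrophil-like cells (5.13 to 19.8 CPM) and fibroblast-like cells (595 to 188 CPM) differed by 3.61, and for *Ackr3* (8.55 to 23.7 and 432 to 160 CPM) by 2.90. Neutrophil-like cells held at most 31 UMIs of either gene, and carried-over fibroblast RNA would give 16.3 and 13.9 CPM on Day 7. For *Cxcl14*, Day 14 over Day 7, fibroblast-like cells (22.1 to 53.3 CPM) and macrophage-like cells (10.7 to 3.15 CPM) differed by 3.03. For *Ccr7*, Day 7 over Day 3, fibroblast-like cells (0.406 to 1.10 CPM) differed by 2.69 from conventional dendritic-like cells (475 to 198 CPM) and by 2.62 from mature dendritic-like cells (4741 to 2075 CPM), the fibroblast-like levels resting on 8 and 70 UMIs.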

How the results depend on the processing

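No paired analysis was possible because each day had 1 library, and no replicate could be left out. Of the log2 ratios, 234 stayed within their counting interval, 99 moved out of it, and 9 whose interval left out 0 changed sign. Of the counts, 107 stayed within 1.5 times and 17 did not. Of the shares of UMIs or cells, 111 stayed within their binomial interval and 97 did not. With cells of 5000 to 20000 UMIs, which kept 38 of the 501 fibroblast-like cells of Day 3, the whole-library Day 7 over Day 3 ratios turned to 1.84 for *Cxcl12*, 3.00 for *Cxcl13*, 0.41 for *Cxcl14* and 1.92 for *Ackr3*, and the Day 14 over Day 7 ratios to -0.04 for *Ackr3* and 0.26 for *Ccr7*. *Ackr3* in macrophage-like cells turned to 0.01 there. No fibroblast-like value of Day 3 could be had in that range, where depth and class makeup changed together and cannot be told apart. *Cxcl16* in fibroblast-like cells, Day 7 over Day 3, turned to 0.37 when called doublets stayed in and 0.11 with a class per cell from its own markers. The cause was not tested.

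Counts of genes past 2-fold moved as follows. In whole libraries, Day 7 over Day 3, 2 were higher and 1 lower with cells weighted equally, and 4 were higher at 5000 to 20000 UMIs, where 1 was lower for Day 14 over Day 7. In fibroblast-like cells, Day 7 over Day 3, 2 were higher with a class per cell. In macrophage-like cells, Day 7 over Day 3, 1 was higher without the 50 most abundant genes, with cells weighted equally, at 5% mitochondrial UMIs and with libraries clustered alone, and 2 were lower with libraries clustered alone and at 5000 to 20000 UMIs. For Day 14 over Day 7, 1 was higher with libraries clustered alone and with no filter on low counts. Then 2 were lower with cells weighted equally, at 5% mitochondrial UMIs and at 5000 to 20000 UMIs, and 0 with libraries clustered alone. At resolution 0.5 there was no conventional dendritic-like or lymphatic endothelial-like class, and at 5% mitochondrial UMIs no mast or Schwann-like class.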

Other observations

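A pair of small clusters stayed unnamed, and their values belong to no class. The 135 cells of the cluster led by *Siglech* and *Ly6c2* had *Cxcr4* at 88.1 CPM and *Cxcl16* at 20.3 CPM. The 42 cells of the cluster led by *Cd207*, *H2-M2* and *Epcam*, 41 of them from Day 14, had *Cxcl16* at 379 CPM (298 to 474).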
